A study of Homo sapiens with 8 samples.

Results

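AKAP12 and 7 other A-kinase anchoring protein (AKAP) genes, AKAP1, AKAP8, AKAP8L, AKAP9, AKAP10, AKAP11 and AKAP13, were followed in human colorectal cancer cells depleted of peroxiredoxin II (PrxII, encoded by PRDX2). They are 8 of 25192 gene symbols measured in each library, and 9 other symbols carry the AKAP name. The family was chosen by its names around AKAP12, and AKAP12 was selected on its measured values, because it was higher after PRDX2 siRNA in HT29 cells and not in SW480 cells. The values of AKAP12 in those contrasts are therefore given as a description with no test, and the other 7 genes were tested. HT29 and SW480 are established colorectal cancer cell lines with truncated APC, the scaffold of the β-catenin destruction complex. Cells of each line were transfected for 36 h with control siRNA or with PRDX2 siRNA, with 2 libraries in each of the 4 groups and 8 libraries in all. The lines were grown in different media (McCoy's 5A for HT29, RPMI1840 for SW480), so line and medium cannot be told apart. Nothing in the labels says whether the duplicates were separate cultures, so the p-values measure only the spread between duplicates, which may be technical.

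A-kinase anchoring proteins hold the regulatory subunits of protein kinase A (PKA), the kinase activated by cyclic AMP (cAMP), at defined places in the cell, and bring phosphatases, phosphodiesterases and other kinases to the same site. AKAP12, also called gravin or SSeCKS, is a scaffold below the plasma membrane that binds PKA, protein kinase C and calmodulin, and it is known as a suppressor of cell migration and metastasis whose promoter is often methylated in tumours, colorectal cancer included. PrxII is a peroxidase that removes hydrogen peroxide.

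In GRCh37, AKAP12 lies on chromosome 6 from 151561102 to 151679694 on the plus strand. RefSeq (GRCh38.p14) gives it 3 transcript starts. The window from 250 bases before to 50 bases after each start is shown because the start in use was not determined. The deposited weighted transcript length of AKAP12, over 2 transcripts, was 8230 nt in all 8 libraries and was not traced to a start. The capitals mark CACGTG, an E-box sequence that reads the same on both strands, and the search for it was added after the sequences had been seen.
AKAP12 start 1, chr6:151239717-151240016, plus strand: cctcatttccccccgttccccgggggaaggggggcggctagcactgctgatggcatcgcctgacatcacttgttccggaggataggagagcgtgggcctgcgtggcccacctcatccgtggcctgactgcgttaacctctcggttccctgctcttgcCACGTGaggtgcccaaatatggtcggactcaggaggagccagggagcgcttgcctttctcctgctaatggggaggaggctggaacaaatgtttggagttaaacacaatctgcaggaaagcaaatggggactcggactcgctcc
AKAP12 start 2, chr6:151325281-151325580, plus strand: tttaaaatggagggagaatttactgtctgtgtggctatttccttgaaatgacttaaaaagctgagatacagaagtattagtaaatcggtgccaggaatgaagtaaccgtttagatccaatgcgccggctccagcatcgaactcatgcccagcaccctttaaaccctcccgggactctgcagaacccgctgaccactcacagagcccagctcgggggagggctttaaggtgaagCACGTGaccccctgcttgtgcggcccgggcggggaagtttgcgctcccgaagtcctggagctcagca
AKAP12 start 3, chr6:151341456-151341755, plus strand: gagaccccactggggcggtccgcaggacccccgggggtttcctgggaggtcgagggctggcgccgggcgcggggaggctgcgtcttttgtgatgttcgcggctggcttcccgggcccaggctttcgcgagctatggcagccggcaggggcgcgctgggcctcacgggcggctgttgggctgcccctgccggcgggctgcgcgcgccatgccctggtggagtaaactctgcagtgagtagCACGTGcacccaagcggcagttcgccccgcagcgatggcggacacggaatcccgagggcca
The third window is the richest in CpG, with 32 CpG dinucleotides and 72.3% GC, against 15 and 59.7% in the first and 14 and 53.3% in the second. Each window holds CACGTG at 1 position, while 7.26% of 35116 RefSeq windows of the same length hold it. Of 1019 genes with exactly 3 such windows, 6 (0.589%) hold it in all 3. Searched on both strands, the windows held no cAMP response element (TGACGTCA, in 1.85% of all windows), no core of that element (TGACG, in 24.6%), no antioxidant response element core (TGACNNNGC, in 13.3%), no AP-1 site (TGANTCA, in 7.71%) and no TCF core (CTTTGA, in 12.9%). The dioxin response core GCGTG, which 36.5% of all windows hold, was at 2 positions of the first window. Absence of these letters applies to these windows alone. Among the other members, RefSeq windows were at hand for all but AKAP8L, and CACGTG was found in 1 window of AKAP1 and in that of AKAP10.

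PRDX2 itself was lower in every PRDX2 siRNA library. In TPM, the level RSEM scales by transcript length and library, PRDX2 was 331.29 and 343.46 in the HT29 control libraries and 193.41 and 193.63 after PRDX2 siRNA. In SW480 cells it was 481.72 and 560.2 in the control libraries and 169.15 and 171.87 after PRDX2 siRNA. The log2 fold change was -0.87 (SE 0.049) in HT29 cells and -1.70 (SE 0.12) in SW480 cells, with Benjamini-Hochberg adjusted p-values of 1.15e-09 and 6.18e-04 in the quasi-likelihood test of edgeR. The depletion was thus deeper in SW480 cells, by 0.84 on the log2 scale (adjusted p = 0.0128 in the edgeR test of the difference). The libraries held 8857442 to 10164137 expected counts. The SW480 control duplicates stood apart from each other, with a chi-square of 10.6 per degree of freedom over genes, against 1.42 to 2.08 in the other groups. Their difference followed transcript GC content (Spearman correlation across genes -0.68, against -0.16 in the HT29 controls). Epithelial markers summed to 18390 and 18510 TPM in the HT29 controls and 17240 and 17350 TPM after PRDX2 siRNA. In SW480 cells they summed to 10140 to 10930 and then 9876 to 9886 TPM, and there was no overlap in either line. In HT29 cells 5 of these 10 genes were called in edgeR, against 17.6% of all genes tested. KRT8, KRT18 and KRT19 were lower (9.82% of all genes were) and KRT20 and CDX2 higher (7.76%). In SW480 cells 1 of 7 tested was called, KRT18, which was lower (-0.37, edgeR adjusted p = 0.021), against 3.3% of all genes. Markers of fibroblasts, in which AKAP12 is usually abundant, summed to 2.06 to 3.14 TPM in HT29 and 9.31 to 12.35 TPM in SW480 libraries, with 4 of 6 genes at 3 counts or fewer in every HT29 library. In HT29 cells these markers summed to 2.61 and 2.72 TPM without and 2.06 and 3.14 TPM with PRDX2 siRNA, so the ranges overlapped. The labels name established cell lines and no other cells. Whether these marker levels bear on the level of AKAP12 in SW480 libraries was not tested. The endothelial markers summed to 0.1 to 0.45 TPM in HT29 and 1.53 to 1.96 TPM in SW480 libraries, with 3 or all 4 of the 4 genes at 3 counts or fewer in HT29. Of the 4 leukocyte markers, 2 were at 3 counts or fewer in every library. PTPRC and CD3E had too few counts to be tested in either line, and only CD14 and CD68 could be tested. The sum of the 4 went from 34.4 to 37.16 TPM in the HT29 controls to 26.56 to 30.09 TPM after PRDX2 siRNA. In SW480 cells it went from 15.57 to 19.3 TPM to 24.83 to 27.39 TPM. There was no overlap in either line, and CD68 was called lower in HT29 cells (-0.40, edgeR adjusted p = 0.021). The part of these shifts in the values of the AKAP genes was not tested.

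AKAP12 was the least abundant of the 8 genes in the HT29 controls and the most abundant in SW480 cells. In the HT29 control libraries it stood at 11.11 and 9.93 TPM (415 and 365 counts), and after PRDX2 siRNA at 35.52 and 35.08 TPM (1331 and 1226 counts). Both PRDX2 siRNA libraries lay far above both controls, and the mean level was 3.36-fold higher. On the log2 scale of edgeR the change was 1.68 (SE 0.058, n = 2 libraries per group). Of 11024 genes with a mean of at least 5 CPM (counts scaled by library size) in HT29 cells, 3 had a larger log2 fold change. In the SW480 control libraries AKAP12 stood at 298.26 and 281.00 TPM (9664 and 9933 counts), and after PRDX2 siRNA at 308.77 and 299.27 TPM (10596 and 10458 counts). In TPM both SW480 PRDX2 siRNA libraries lay above both controls, and the mean was 1.05-fold higher. In CPM the ranges overlapped, at 1079 and 1025 in the controls and 1053 and 1021 after PRDX2 siRNA. The sign of the SW480 change thus depended on the scaling, and edgeR's log2 fold change was -0.02 (SE 0.079). The effects in HT29 and SW480 cells differed by 1.70 (SE 0.097) on the log2 scale, and 88 of 11806 genes had a larger difference.

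The levels of AKAP12 in HT29 and SW480 cells did not meet. SW480 cells held 27.5 times the HT29 level under control siRNA, and 8.61 times after PRDX2 siRNA. As a share of the summed TPM of the 8 genes, AKAP12 made up 3.86% and 3.44% in the HT29 controls and 10.8% in each HT29 PRDX2 siRNA library. The share was 52.9% and 52.0% in the SW480 controls and 51.0% and 50.5% after PRDX2 siRNA. The 7 other genes summed to 276.8 and 278.6 TPM in the HT29 controls and 265.2 and 259.7 TPM in the SW480 controls. After PRDX2 siRNA these sums were 292.6 and 290.5 TPM in HT29 and 296.8 and 293.6 TPM in SW480 cells. TPM values as a whole also moved, since the median log2 change over all genes was 0.059 in HT29 and 0.085 in SW480 cells on the log2(TPM + 1) scale, against -0.00048 and 0.0022 in edgeR.

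**Figure D1:**
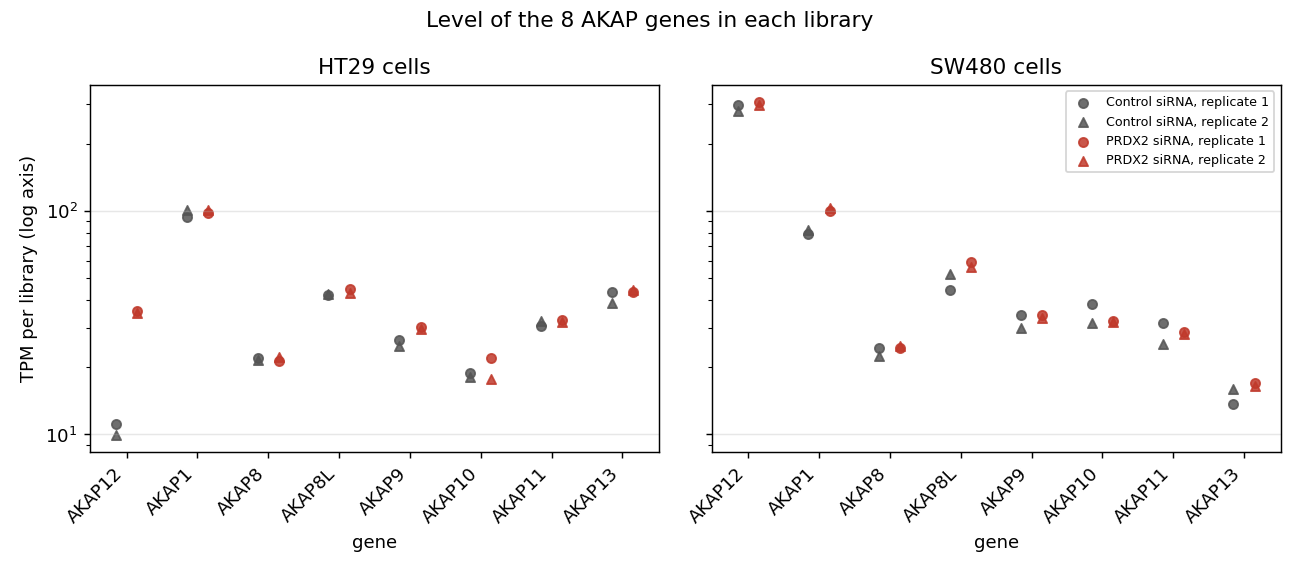
Level of each of the 8 AKAP genes in each library, in TPM on a log axis, for HT29 cells (left) and SW480 cells (right). Grey marks are control siRNA and red marks PRDX2 siRNA libraries, with circles for replicate 1 and triangles for replicate 2. AKAP12 is lowest in the HT29 controls (9.93 and 11.11 TPM) and highest in every SW480 library (281 to 308.77 TPM).

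The order of the family changed with the line. In the HT29 controls AKAP1 led with a mean of 97.1 TPM, followed by AKAP8L (42.3), AKAP13 (41.1), AKAP11 (31.4), AKAP9 (25.7), AKAP8 (21.8), AKAP10 (18.4) and AKAP12 (10.5). The duplicates of AKAP8L and AKAP13 overlapped, and those of all other neighbours in this order did not. After PRDX2 siRNA AKAP12 (35.3 TPM) moved up in HT29 cells to a place between AKAP8L (43.9) and AKAP11 (32.2), with no overlap on either side. In the SW480 controls AKAP12 (289.6 TPM) was followed by AKAP1 (80.4), AKAP8L (48.3), AKAP10 (34.9), AKAP9 (32.2), AKAP11 (28.5), AKAP8 (23.4) and AKAP13 (14.8), where AKAP10 overlapped AKAP9 and AKAP9 overlapped AKAP11. The SW480 order after PRDX2 siRNA differed only in that AKAP9 (33.8) stood above AKAP10 (32.0).

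Of the 7 other genes, 3 differed between the control libraries of the lines, 1 higher and 2 lower in SW480 cells, in the quasi-likelihood test of edgeR, adjusted after Benjamini and Hochberg over 14346 genes. This share has to be read against a background in which 67.5% of all genes tested differed, 35.7% higher and 31.8% lower. AKAP13, a scaffold that is also a guanine nucleotide exchange factor for RhoA, was at 43.21 and 38.89 TPM in the HT29 and 13.69 and 15.99 TPM in the SW480 controls. Its log2 difference was -1.50 (SE 0.12, edgeR adjusted p = 1.05e-05), and it ranked beside AKAP8L, next after AKAP1, in HT29 cells and last in SW480 cells. AKAP13 was also the member whose deposited transcript length, an average weighted by the isoforms RSEM found, separated the lines, at 11073.76 to 11279.82 nt in HT29 and 11501.04 to 11989.79 nt in SW480 libraries. AKAP10, an anchor with RGS-type domains found at mitochondria and endosomes, went the other way, with 18.81 and 18.08 TPM in HT29 and 38.33 and 31.48 TPM in SW480 controls. Its log2 difference was 0.79 (SE 0.14, edgeR adjusted p = 9.28e-04). AKAP1, the anchor of the outer mitochondrial membrane, was lower in SW480 controls, at 78.74 and 82.09 TPM against 93.65 and 100.57 TPM, with a log2 difference of -0.40 (SE 0.10, edgeR adjusted p = 0.00806). The AKAP1 call was lost without HT29 control replicate 1 (adjusted p = 0.0916) or replicate 2 (adjusted p = 0.196), while those of AKAP10 and AKAP13 held without any library left out. AKAP9, AKAP11, AKAP8 and AKAP8L did not pass the test in this comparison (log2 differences 0.20, -0.26, -0.03 and 0.07). Without SW480 control replicate 1, AKAP8L, AKAP9 and AKAP11 passed too and 6 of the 7 genes were called, and without replicate 2 AKAP9 passed and 4 were called.

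In HT29 cells, PRDX2 siRNA changed 1 of the 7 other genes, against 17.6% of all 12961 genes tested (7.76% higher and 9.82% lower), so the share of members called was near the background. That gene was AKAP9, a large anchor of the Golgi and centrosome that is needed for microtubule nucleation there. AKAP9 stood at 26.47 and 24.85 TPM in the controls and 30.25 and 29.69 TPM after PRDX2 siRNA, with both PRDX2 siRNA libraries above both controls. In TPM that separation was also seen for AKAP8L and AKAP13, which were not called, and its share over all genes was not counted. The log2 fold change of AKAP9 was 0.16 (SE 0.045, adjusted p = 0.0192 by edgeR's quasi-likelihood test). The call was lost with DESeq2 (adjusted p = 0.132) and without HT29 control replicate 2 (0.171) or HT29 PRDX2 siRNA replicate 1 (0.075).

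The remaining 6 genes had log2 fold changes between -0.07 and 0.05 in HT29 cells. AKAP1 was at 93.65 and 100.57 TPM in the controls and 98.36 and 101.44 TPM after PRDX2 siRNA, with a log2 fold change of -0.02 and a 95% interval of -0.12 to 0.07. AKAP13 was at 43.21 and 38.89 TPM and then 43.51 and 44.43 TPM, with an interval of -0.05 to 0.14. These intervals leave out a change of the size seen for AKAP12. AKAP8, a nuclear anchor tied to chromatin condensation, was at 22.08 and 21.61 TPM and then 21.32 and 22.19 TPM (interval -0.23 to 0.09). AKAP8L, its nuclear relative, was at 42.18 and 42.32 TPM and then 44.68 and 43.12 TPM (interval -0.15 to 0.14). AKAP8 and AKAP8L lie side by side on the minus strand of chromosome 19 in GRCh37, at 15464196 to 15490626 and 15490861 to 15529952, with 234 bases between them. AKAP10 was at 18.81 and 18.08 TPM and then 21.94 and 17.75 TPM, where its PRDX2 siRNA duplicates lay above and below both controls (interval -0.15 to 0.24). AKAP11, an anchor that also binds glycogen synthase kinase 3 and protein phosphatase 1, was at 30.42 and 32.29 TPM and then 32.51 and 31.89 TPM (interval -0.12 to 0.07). Over the 7 genes the median log2 fold change was -0.0085, and over all genes -0.00048.

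**Figure D2:**
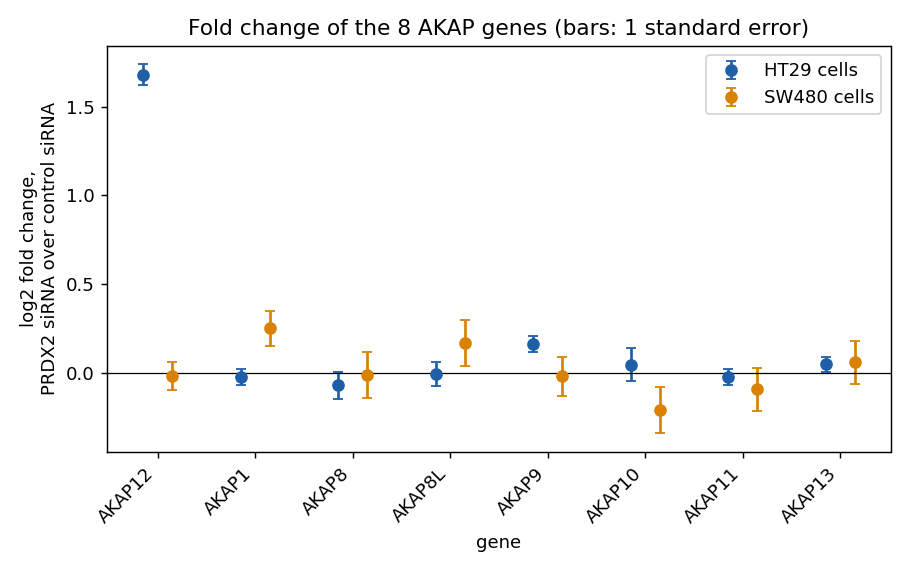
Log2 fold change of each of the 8 AKAP genes, PRDX2 siRNA over control siRNA, by edgeR in HT29 cells (blue) and SW480 cells (orange), with bars of 1 standard error and 2 libraries per group. AKAP12 stands at 1.68 in HT29 and -0.02 in SW480 cells, and the other 7 genes lie between -0.21 and 0.25.

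In SW480 cells, none of the 7 other genes had an adjusted p under 0.05 in edgeR, against 3.3% of all 14112 genes tested (1.22% higher and 2.08% lower). By DESeq2 the count was 0 as well, and at an unadjusted p under 0.05 edgeR gave 1 gene, AKAP1. AKAP1 was at 78.74 and 82.09 TPM in the controls and 100.45 and 103.12 TPM after PRDX2 siRNA. Both PRDX2 siRNA libraries lay above both controls, and the log2 fold change was 0.25 (SE 0.10, 95% interval 0.01 to 0.48, edgeR adjusted p = 0.187). In TPM the PRDX2 siRNA libraries also lay above both controls for AKAP8, AKAP8L and AKAP13. AKAP8L was at 44.31 and 52.21 TPM and then 59.42 and 56.10 TPM (log2 fold change 0.17, adjusted p = 0.452 by edgeR). AKAP10 was at 38.33 and 31.48 TPM and then 32.36 and 31.72 TPM, and the spread of its control duplicates covered its PRDX2 siRNA values (log2 fold change -0.21, adjusted p = 0.34 by edgeR). AKAP9 was at 34.41 and 29.98 TPM and then 34.42 and 33.18 TPM. AKAP11 was at 31.51 and 25.51 TPM and then 28.69 and 28.15 TPM, inside the range of its controls. AKAP8 (24.25 and 22.47, then 24.37 and 24.81 TPM) and AKAP13 (13.69 and 15.99, then 17.07 and 16.54 TPM) had log2 fold changes of -0.02 and 0.06.

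The SW480 results rested on which control library was kept. Without SW480 control replicate 2, edgeR called 5 of the 7 genes, with AKAP1 (0.28), AKAP8L (0.29) and AKAP13 (0.18) higher and AKAP10 (-0.35) and AKAP11 (-0.24) lower on the log2 scale, while 7364 of all genes were called. Without SW480 control replicate 1 it called AKAP1 (0.21, adjusted p = 0.00854) and 3437 genes in all. With a single control library the test takes its spread from the other duplicates. AKAP12 was at -0.064 without SW480 control replicate 2. Other processing mattered too. Over all alternatives the SW480 log2 fold change of AKAP8L ranged from -0.11 to 0.29 and that of AKAP1 from 0.13 to 0.34. The ranges of AKAP8, AKAP9, AKAP11 and AKAP13 also held both signs, while that of AKAP10 stayed negative.

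None of the 7 genes differed in its response between HT29 and SW480 cells by the edgeR test of the difference, in which 1.12% of 14772 genes passed. DESeq2 also called 0, and 1 gene, AKAP1, had an unadjusted p under 0.05 in edgeR. The response of AKAP1 was 0.27 lower in HT29 than in SW480 cells as a log2 difference (-0.27, 95% interval -0.49 to -0.05, adjusted p = 0.186 by edgeR). Without SW480 control replicate 2 the log2 differences were -0.32 for AKAP1, -0.32 for AKAP8L, 0.26 for AKAP9, 0.38 for AKAP10 and 0.20 for AKAP11. Each of these was further from 0 than with all 8 libraries. Without SW480 control replicate 1 that of AKAP1 was -0.24.

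**Figure D3:**
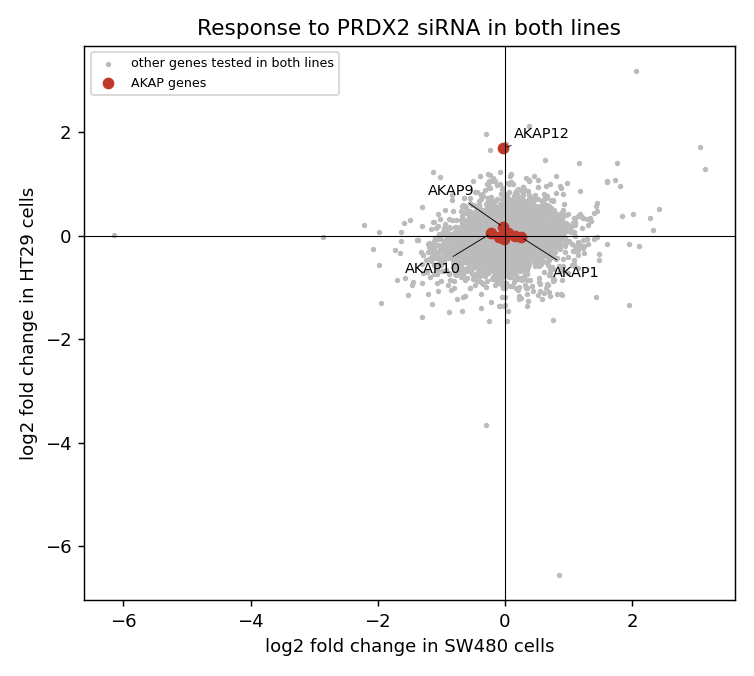
Log2 fold change after PRDX2 siRNA in SW480 cells (horizontal) and in HT29 cells (vertical) for genes tested in both lines (grey) and the 8 AKAP genes (red), with 4 of these named. AKAP12 lies at 1.68 in HT29 and -0.02 in SW480 cells, while the other AKAP genes lie within the central cloud.

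The genes whose pattern over the 8 libraries was most like that of AKAP12 were found by the Euclidean distance of log2 CPM, centred on the control libraries of each line, among 11805 genes. They were NKD1 (distance 0.56), LEF1 (0.61), ABCB1 (0.66), FAM125B (0.68) and FOXD1 (0.70), against a median distance of 2.42 over all genes and of 2.15 to 2.48 for the 7 other AKAP genes. LEF1, ABCB1, FAM125B and FOXD1 reached the mean of 5 CPM that the search required only through their level in SW480 cells. Their lower level in HT29 cells was thus in part set by that minimum, which does not hold for NKD1. NKD1, a feedback inhibitor of Wnt signalling, was at 4.45 and 3.77 CPM in the HT29 controls and 15.04 and 17.16 CPM after PRDX2 siRNA, and at 482.9 and 542.5 and then 426.3 and 409.7 CPM in SW480 cells. FOXD1, a forkhead transcription factor, was at 0.318 and 0.43 CPM and then 1.01 and 1.63 CPM in HT29 cells, close to the value of 3 counts (0.295 to 0.339 CPM). LEF1 (a partner of β-catenin on DNA), ABCB1 (the drug efflux pump P-glycoprotein) and FAM125B stayed under 1 CPM in every HT29 library and did not reach the count minimum there, so their likeness rests on few counts.

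Genes of the PKA system other than these members were followed as lists set by role. Of the 9 other AKAP-named genes, 5 could be tested in HT29 and 6 in SW480 cells and none passed in edgeR or DESeq2. At an unadjusted p under 0.05, edgeR gave AKAP17A in HT29 (-0.12) and AKAP5 in SW480 cells, at 2.16 and 1.65 TPM in the controls and 0.93 and 1.09 TPM after PRDX2 siRNA (-1.0, adjusted p = 0.0702). Among other PKA-anchoring proteins, 1 of 9 tested was called in HT29 cells, where 17.6% of all genes were, the Golgi protein ACBD3 (0.16, edgeR adjusted p = 0.0305), and 0 of 11 in SW480 cells, where 1 had an unadjusted p under 0.05 in edgeR and DESeq2 called 0. The PKA subunits and inhibitors had 2 of 8 lower and 0 higher in HT29 cells, against 9.82% and 7.76% of all genes. PRKAR1B, a regulatory subunit, was at 30.83 and 33.17 TPM and then 24.49 and 23.53 TPM (log2 fold change -0.47, SE 0.08, adjusted p = 5.43e-04 by edgeR). PRKACB, a catalytic subunit, was at 5.87 and 6.63 TPM and then 5.18 and 4.28 TPM (-0.465, SE 0.15, adjusted p = 0.0344 by edgeR). In SW480 cells 0 of 9 were called by edgeR and by DESeq2, with 2 at an unadjusted p under 0.05. Their medians were 0.055 in HT29 and -0.033 in SW480 cells.

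Among the enzymes that make cAMP, 1 of 6 adenylyl cyclases fell in HT29 cells, ADCY6 (-0.16, edgeR adjusted p = 0.0269), against 9.82% of all genes. In SW480 cells 0 of 4 passed in edgeR or DESeq2 and 1 had an unadjusted p under 0.05. Of the phosphodiesterases that break cAMP down, 0 of 8 passed in HT29 cells in edgeR or DESeq2 (1 at an unadjusted p under 0.05), and 1 of 10 fell in SW480 cells, PDE4D, against 2.08% of all genes. PDE4D was at 76.76 and 62.09 TPM in the SW480 controls and 47.7 and 46.79 TPM after PRDX2 siRNA (-0.65, SE 0.12, edgeR adjusted p = 0.0314, lost with limma at 0.0878 and 0.0909). Of 8 CREB factors and coactivators, 2 rose in HT29 cells, the coactivator EP300 (0.28, edgeR adjusted p = 4.02e-04) and the factor CREB1 (0.18, edgeR adjusted p = 0.044), and 0 in SW480 cells in edgeR or DESeq2 (3 at an unadjusted p under 0.05). In HT29 cells 7.76% of all genes rose. The calls of ACBD3, PRKACB, ADCY6 and CREB1 in HT29 cells and of PDE4D in SW480 cells were lost when some library was left out, and those of PRKAR1B and EP300 were not. With DESeq2 the calls of ACBD3 (adjusted p = 0.278), ADCY6 (0.204) and CREB1 (0.342) were lost and PRKACB had no adjusted p. With all 8 libraries in 1 edgeR fit, none of the 6 HT29 calls was kept, with adjusted p-values of 0.0966 for PRKAR1B, 0.327 for EP300, 0.509 for ACBD3, 0.302 for PRKACB, 0.516 for ADCY6 and 0.498 for CREB1.

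The list of known cAMP response genes was chosen with earlier results of these data known. Whether cAMP had a part in their changes was not tested. In HT29 cells 5 of 11 tested rose and 0 fell in edgeR, against 7.76% of all genes that rose and 9.82% that fell. Their median log2 fold change was 0.30, against -0.00048 over all genes. DESeq2 called 4 of the 5 and gave FOSB no adjusted p. AREG, an EGF receptor ligand, was at 270.58 and 270.22 TPM in the controls and 568.64 and 564.89 TPM after PRDX2 siRNA. Its log2 fold change was 1.00 (SE 0.037, adjusted p = 8.23e-12 by edgeR). FOS, a subunit of AP-1, was at 51.08 and 53.91 TPM and then 76.09 and 77.11 TPM (0.48, SE 0.059, adjusted p = 1.72e-05 by edgeR). RGS2, a brake on G protein signalling, was at 93.38 and 94.02 TPM and then 123.15 and 132.69 TPM (0.38, edgeR adjusted p = 2.19e-04), and DUSP1, a MAP kinase phosphatase, at 11.78 and 11.97 TPM and then 21.59 and 19.93 TPM (0.74, edgeR adjusted p = 3.45e-04). FOSB rose as well (0.81, edgeR adjusted p = 0.00296). The other 6 tested genes of the list did not pass, with NR4A2 at 0.30, JUNB at 0.10, SIK1 at 0.03, NR4A1 at -0.15, PPARGC1A at -0.19 and PER1 at -0.33. The RGS2 call was lost with all 8 libraries in 1 fit (adjusted p = 0.239 in edgeR). With a block for the replicate number or with a robust prior, edgeR called 6 of the list, 5 higher and 1 lower. With GC correction it called 6, all higher.

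In SW480 cells 0 of 12 cAMP response genes passed in edgeR or DESeq2, 2 had an unadjusted p under 0.05, and the median was -0.04. AREG was at 22.25 and 18.76 TPM in the SW480 controls and 15.80 and 20.17 TPM after PRDX2 siRNA, and FOS at 37.01 and 42.11 TPM and then 35.09 and 35.58 TPM. Without SW480 control replicate 2, 3 of the list were called, 2 higher and 1 lower, beside 7364 of all genes, and without replicate 1, 2 were called beside 3437 of all genes. With GC correction 2 were called, both lower, and with all 8 libraries in 1 fit 1 was called, higher. The response differed between HT29 and SW480 cells for AREG (1.27, SE 0.17, adjusted p = 0.00707 by edgeR) and FOS (0.74, SE 0.13, adjusted p = 0.033 by edgeR), against 1.12% of all genes. In the same edgeR test with any HT29 library left out, neither difference was called, with adjusted p-values of 0.0677 to 0.0779 for AREG and 0.186 to 0.216 for FOS. That of AREG was also lost without SW480 PRDX2 siRNA replicate 1 (adjusted p = 0.0854), and that of FOS without replicate 1 (0.206) or replicate 2 (0.217) of that group.

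**Figure D4:**
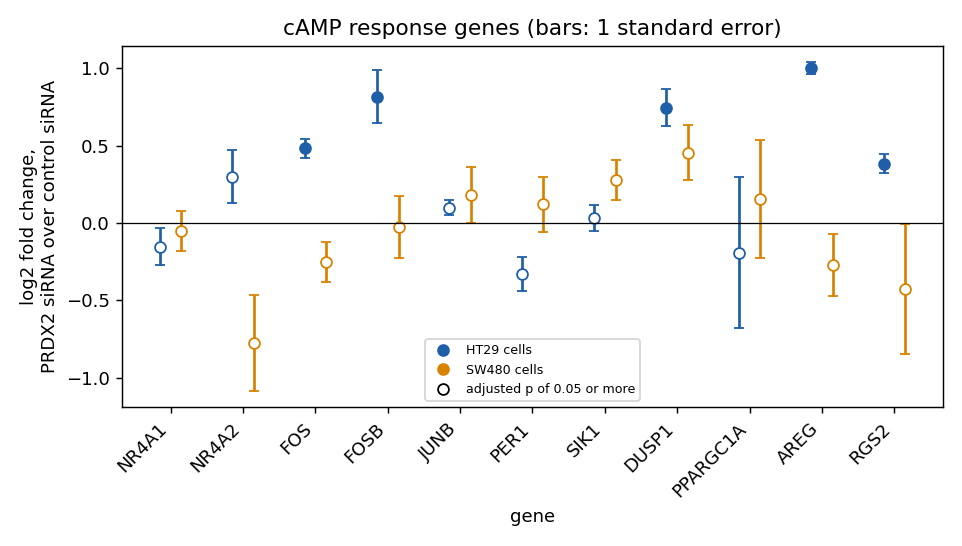
Log2 fold change after PRDX2 siRNA of the cAMP response genes tested in both lines, in HT29 cells (blue) and SW480 cells (orange), with bars of 1 standard error and 2 libraries per group. Filled circles have an edgeR adjusted p under 0.05. AREG (1.00), FOSB (0.81), DUSP1 (0.74), FOS (0.48) and RGS2 (0.38) are filled in HT29 cells, and no circle is filled in SW480 cells.

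Known binding partners and targets of AKAP12 were examined beside it. In HT29 cells 1 of 13 was higher and 4 were lower, against 7.76% and 9.82% of all genes. SRC, the tyrosine kinase that AKAP12 holds at the membrane, was higher (0.20, SE 0.037, edgeR adjusted p = 9.67e-04). CCND1, encoding cyclin D1, was at 90.87 and 91.08 TPM and then 67.32 and 65.27 TPM (-0.52, SE 0.043, edgeR adjusted p = 1.44e-07). The mitotic kinases AURKA (-0.465, edgeR adjusted p = 3.05e-06) and PLK1 (-0.40, edgeR adjusted p = 1.63e-04) and the calmodulin gene CALM3 (-0.14, edgeR adjusted p = 6.03e-04) were lower too. With all 8 libraries in 1 edgeR fit the calls of SRC (adjusted p = 0.29), PLK1 (0.0525) and CALM3 (0.527) were lost, and that of CALM3 also with limma (0.0936 and 0.0941). In SW480 cells edgeR called 1 of 14, CCND1, against 3.3% of all genes, while DESeq2 called 2 and 6 had an unadjusted p under 0.05 in edgeR. CCND1 was at 686.07 and 697.06 TPM and then 490.71 and 487.18 TPM (-0.59, SE 0.077, edgeR adjusted p = 0.00881). That call was lost without SW480 PRDX2 siRNA replicate 1 (adjusted p = 0.283) or replicate 2 (0.326). CCND1 fell in both lines, and the paper lists it among the β-catenin target genes that were lower in both. Whether AKAP12 had a part in any of these changes was not tested.

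Genes next to AKAP12 on chromosome 6 were compared with it, a list added after the values of AKAP12 were known. Of 9 genes within 1 Mb in GRCh37, 8 were tested in HT29 cells and 1 was called, RMND1, a mitochondrial translation gene 40.3 kb away (0.32, edgeR adjusted p = 0.0417), against 17.6% of all genes called and 7.76% higher. The change of RMND1 was 0.17 without HT29 PRDX2 siRNA replicate 2 (adjusted p = 0.37 in edgeR), and the call was also lost without HT29 control replicate 2 (0.134), with DESeq2 (0.285), without the count filter (0.0506), with all 8 libraries in 1 fit (0.355) and with limma (0.0522 and 0.0537). The nearest gene, ZBTB2, a zinc finger repressor 5.6 kb away on the other strand, had a log2 fold change of 0.13 (adjusted p = 0.174 by edgeR). In SW480 cells 0 of 7 were called by edgeR or DESeq2, and 1 had an unadjusted p under 0.05.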

How the data were processed

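Messenger RNA of 8 libraries was grouped by the sample labels. The authors aligned paired reads from libraries that do not mark strand to hg19 with MapSplice and estimated abundances of refGene genes with RSEM. They deposited for each library and gene an expected count, TPM and FPKM, with a weighted transcript length. FPKM was not used. The deposited expected counts were rounded and tested with edgeR 4.0.16 in R 4.3.3 (TMM, quasi-likelihood test, Benjamini-Hochberg adjustment over all genes that reached 10 counts in 2 or more libraries, threshold 0.05), within each line, between control libraries, and for the difference of effects in 1 fit of all 8. Standard errors are the log2 fold change over the root of the F statistic. Levels are compared in the deposited TPM, since log2 fold changes on TPM shift with the scaling. Intervals and count floors cover counting error only or the spread of duplicates. Groups of 2 against 2 allow an exact permutation p no lower than 0.333, so no such test was used.

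The members and gene lists were chosen with earlier results of these data known. The named genes are the 8 members, PRDX2, at most 4 called genes per list and line with the smallest p, and the 5 genes most like AKAP12. FOSB, CALM3, the called marker genes and genes that did not pass were named after their values were seen. Alternatives were DESeq2 1.42.0, limma 3.58.1 (log2 TPM with a pseudocount of 1 or 0.1), RLE, no count filter, a robust prior, a block for the replicate number, 1 fit of all 8 libraries, a GC correction (loess span 0.5, GC known for 96.5% to 97% of tested genes), and leaving out each library. The alternatives for the list genes were added after seeing the data. On simulated counts with 200 genes changed by 1 on the log2 scale, edgeR recovered 99.5% in the HT29, 96% in the SW480, 91% in the difference and 98% in the control comparison. Of the genes called there, 0.995% to 4.95% were false. The simulation gave all genes the same spread, changed only well-counted genes and left out the GC-linked split of the SW480 controls. Its recovery therefore does not carry over to the measured libraries.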

Additional observations from a re-analysis of the deposited data

Results flagged for a closer look

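The effect of PRDX2 siRNA differed between HT29 and SW480 cells, in the edgeR test of that difference (Benjamini-Hochberg adjusted over all genes), for 4 of the named genes other than AKAP12. AREG differed by 1.27 (log2 fold change 1.00 in HT29 and -0.27 in SW480 cells, adjusted p = 0.00707), FOS by 0.737 (0.48 and -0.25, adjusted p = 0.033), PLK1 by -0.598 (-0.40 and 0.20, adjusted p = 0.0459) and the siRNA target PRDX2 by 0.836 (-0.87 and -1.70, adjusted p = 0.0128). In HT29 cells both PRDX2 siRNA libraries lay beyond both control libraries for each of these genes. The genes were picked by a test on these same libraries, so this separation adds no support. All 4 calls were lost on leaving out any HT29 library or SW480 PRDX2 siRNA replicate 1, those of FOS, PLK1 and PRDX2 also without SW480 PRDX2 siRNA replicate 2, and those of PLK1 and FOS also with limma on TPM, while each kept its direction in these fits. Since the depletion of PRDX2 itself differed between HT29 and SW480 cells, a difference in response cannot be told apart from a difference in depletion.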

How the results depend on the processing

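AKAP12 kept its direction in HT29 cells (1.60 to 1.76), between lines (1.59 to 1.79) and in the controls (4.55 to 4.77) under every alternative run, while in SW480 cells it ranged from -0.064 to 0.0704. With CPM in place of TPM, the log2 ratio of mean levels turned negative for AKAP12 (-0.0205), AKAP8 (-0.0155) and AKAP9 (-0.0204) in SW480 and for AKAP8L (-0.00679), AKAP1 (-0.0219) and AKAP11 (-0.0241) in HT29 cells.

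In HT29 cells the count of genes called was 2279, with DESeq2 871 and with all 8 libraries in 1 fit 185, and the count among the 7 other AKAP genes was 1 but 0 with DESeq2, with all 8 libraries in 1 fit and with both limma fits, and 0 to 1 with a library left out. limma on log2(TPM + 1) gave 1252 genes higher and 548 lower, against 1006 and 1273 in edgeR. In SW480 cells 466 genes were called (172 higher and 294 lower), with the replicate block 1727, with all 8 libraries in 1 fit 2415, with limma 214 (126 and 88) and 177 (107 and 70) at pseudocounts of 1 and 0.1, with GC correction 2350, with replicate block and GC correction 3023, and 87 to 7364 with a library left out. Of the 7 AKAP genes, 1 was called with all 8 libraries in 1 fit, and 0 to 5 with a library left out. For the difference between lines 166 genes were called, without the filter 267, with DESeq2 311, with limma 103 and 43, with GC correction 1044, with replicate block and GC correction 898, and 6 to 5237 with a library left out, where 0 to 5 of the AKAP genes were called. Between the control libraries, 5 of the 7 AKAP genes were called with all 8 libraries in 1 fit and 2 to 6 with a library left out. The cause of these changes was not tested.

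Same-numbered duplicates deviated together with correlations of 0.046 in HT29 and 0.081 in SW480 cells. With 2 libraries per group such low correlations cannot decide whether the numbers pair the libraries. The replicate block changed no call of a named AKAP gene and left the count of the 7 at 1 in HT29 and 0 in SW480 cells. Where a library was left out, the lone library of its group was assumed to vary like the others. Groups of 2 libraries limit what a missed call can show.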
